A study of Mus musculus with 8 samples.

Results

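Acta2, Actg2, Tagln, Tagln2, Cnn1, Cnn2, Tpm1, Tpm2 and Cald1 encode actins and actin-binding proteins of the smooth muscle and myofibroblast contractile apparatus, and their RNA was compared between megakaryocytes (MKs) cultured alone and MKs cocultured with mesenchymal stromal cells (MSCs). The 9 genes were taken by gene symbol, with no threshold on their values, and all 9 were among the 13387 genes of the count table and among the 11722 genes that passed edgeR's filter on low counts. Of the 9 genes, 7 were called higher in cocultures (edgeR's quasi-likelihood test, a change of 2-fold or more with an adjusted p no higher than 0.05), 0 were called lower, and Tagln2 and Cnn2 were not called. Of all genes tested, 13.2% were called higher and 7.31% lower. Acta2 was 47.1-fold higher, Tagln 742-fold, Cald1 216-fold, Tpm2 139-fold and Tpm1 16.3-fold, and Cnn1 had 0 counts in every library of MKs cultured alone and was at least 239-fold higher in cocultures.

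Both groups were made of cells from C57BL/6 wild-type mice of 8 to 12 weeks. MKs, the platelet-forming cells of the marrow, were enriched from flushed marrow with CD41 beads and cultured for 18 hours in medium with thrombopoietin, either without other cells (4 libraries) or on adherent marrow MSCs sorted as CD45-Ter119-CD31-CD51+CD140a+ (4 libraries). Cells in suspension were taken off the MSC layer by hand, and each library pooled 5 wells. The labels call the sequenced cells MKs that were separated from platelets, whereas the methods of the study speak of platelets. The replicates are given as 4 mice per group with cells of the cultures pooled, and the labels tie no library to a mouse. The methods also name a batch that the labels do not give, so it is in no fit here and the p-values measure the spread between these libraries, whatever its source.

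Smooth muscle type contraction works through thin filaments of actin and thick filaments of myosin. Tropomyosins run along the actin filament, and caldesmon and calponins bind actin and restrain the myosin ATPase until calcium and phosphorylation release it. Transgelins crosslink actin filaments. The genes for the smooth muscle isoforms are classical targets of serum response factor (SRF) with its cofactors of the myocardin family. SRF binds the CArG box. The same genes are used as markers of smooth muscle cells, pericytes and myofibroblasts, the contractile matrix-forming state of activated stromal cells. Tagln2, Cnn2 and some tropomyosin isoforms are also made in blood cells and platelets.

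Totals ran from 4939874 to 12523616 counts per library, and a floor of 3 counts corresponded to 0.284 to 0.662 CPM (counts relative to a common library size, with edgeR's TMM factors). Replicate 3 of the cocultures stood apart from all other libraries, with counts on 10735 genes against 12406 to 13193 elsewhere and a TMM factor of 0.765, and results that rest on it are given with and without it. The reads carry no molecular identifiers, so floors and counting intervals cover counting error only. The markers in the MK-alone libraries were mixed. Summed neutrophil markers reached 78917 to 81626 CPM there and 4223 to 9668 CPM in cocultures, and summed MK and platelet markers 1911 to 2251 CPM and 1761 to 2361 CPM.

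The genes lie at separate loci of GRCm38 (the build of mm10) in GENCODE vM21. Acta2 is at chr19:34241090-34255590 on the minus strand, Actg2 at chr6:83512905-83536265 (minus), Tagln at chr9:45929619-45936058 (minus), Tagln2 at chr1:172500047-172507380 (plus) and Cnn1 at chr9:22099216-22109630 (plus). Cnn2 is at chr10:79988584-79996062 (plus), Tpm1 at chr9:67022590-67049406 (minus), Tpm2 at chr4:43514711-43523765 (minus) and Cald1 at chr6:34598500-34775473 (plus). Tpm1 and Cald1 are the genes with the most transcripts here, 21 and 18, and the counts are summed per gene, so muscle and non-muscle isoforms of either gene were not separated.

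Because the table was made by matching reads to transcripts, the values depend on how far near-copies can be told apart. The coding sequences of the smooth muscle actins Acta2 and Actg2 were 84.4% identical, and their longest run of identical bases was 29, shorter than the 31-base words that kallisto uses by default. The stretch that holds this run is given as read from the GENCODE transcripts, bases 617 to 685 of the Acta2 coding sequence and 614 to 682 of that of Actg2, with the 10 bases that differ in capitals.
Acta2: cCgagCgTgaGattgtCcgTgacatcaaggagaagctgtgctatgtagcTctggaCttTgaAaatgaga
Actg2: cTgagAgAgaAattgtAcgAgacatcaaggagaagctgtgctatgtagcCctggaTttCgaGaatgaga
Coding identity was 69.8% between Tagln and Tagln2, 66.2% between Cnn1 and Cnn2, and 75.0% between Tpm1 and Tpm2. Some runs of identical coding bases were longer than 31. They reached 47 between Acta2 and Actb, 56 between Acta2 and Actg1, and 35 between Tpm1 and Tpm2. Of the 31-base words of each gene's transcripts, between 0% (Cnn1) and 1.39% (Acta2) also occurred in another gene, except in Tagln. There 62.2% were shared, mostly with Gm48529, an antisense gene on the other strand at chr9:45930112-45933738. Gm48529 itself is not among the genes of the count table. Strand use in the counting is not given in the sources used here, so reads from the shared part cannot be told apart. The values of Tagln are uncertain in that respect.

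The 250 bases before a start site of RefSeq (GRCm38.p6) were available for 7 of the 9 genes, all but Actg2 and Tagln. These start sites lie inside the gene bounds given above, so every window holds bases of the gene as annotated by GENCODE. These windows were searched on both strands for the CArG box, for the same box with 1 inner G or C, and for CATTCC, the core of the sites of TEAD factors. A CArG box was in 1.47% of 32851 promoter windows of the same length, the box with 1 inner G or C allowed in 8.59%, and CATTCC in 12.6%. The promoters of Acta2, the highest of the genes per length in cocultures, and of Cnn2, which was not called, are the members' windows with a box of either form, and are shown with the boxes in capitals. The Acta2 window is chr19:34255374-34255623 (minus strand), and the Cnn2 window is chr10:79988350-79988599 (plus strand).
Acta2 promoter: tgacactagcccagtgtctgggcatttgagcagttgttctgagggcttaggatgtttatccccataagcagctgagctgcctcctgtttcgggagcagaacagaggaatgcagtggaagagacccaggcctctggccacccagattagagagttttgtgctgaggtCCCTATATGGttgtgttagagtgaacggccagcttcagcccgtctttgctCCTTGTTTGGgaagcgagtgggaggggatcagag
Cnn2 promoter: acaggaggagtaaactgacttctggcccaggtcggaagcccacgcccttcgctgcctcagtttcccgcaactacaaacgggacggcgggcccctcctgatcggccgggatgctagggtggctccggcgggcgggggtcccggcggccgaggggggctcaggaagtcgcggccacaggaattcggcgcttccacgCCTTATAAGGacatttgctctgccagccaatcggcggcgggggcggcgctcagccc
Acta2 held 2 boxes with 1 inner G or C, at -84 and -34 from the RefSeq start site, and Cnn2 held a complete box at -56. CATTCC or its reverse complement was found in the windows of Acta2 (-146), Tagln2 (-118 and -80), Tpm1 (-56) and Cald1 (-153), and neither motif in those of Cnn1 and Tpm2. A match describes the letters of the window and not a bound site.

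Acta2 and Actg2 are the actin isoforms of smooth muscle. Acta2 was at 28.5, 37.0, 34.0 and 26.5 CPM in replicates 1 to 4 of MKs cultured alone and at 995, 1652, 2312 and 988 CPM in replicates 1 to 4 of the cocultures. Every coculture lay above every library of MKs cultured alone, and replicate 3 was the highest. The log2 fold change was 5.56 ± 0.365 (SE, n = 4 per group; edgeR's quasi-likelihood test with Benjamini-Hochberg adjustment over all genes tested, adjusted p = 2.65e-05). In bulk RNA, a different number of cells that express a gene and a different amount of its RNA per cell cannot be told apart, here and in all values that follow.

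Actg2 was nearly absent without MSCs. It had 0, 1, 1 and 0 counts in MKs cultured alone and 186, 285, 288 and 159 CPM in the cocultures. The groups did not overlap, and replicates 2 and 3 of the cocultures were close to each other. With 2 counts in all, the ratio of the pooled counts was 3420 with a 95% counting interval of 948 to 28300 (edgeR's quasi-likelihood test, adjusted p = 6.11e-06).

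Transgelin, encoded by Tagln, is an early marker of smooth muscle differentiation, and Tagln2 is its paralog in blood and other cells. Tagln was at 0.221, 0.618, 0.444 and 1.30 CPM (1, 6, 4 and 8 counts) in MKs cultured alone and at 271, 469, 944 and 293 CPM in the cocultures. The lowest coculture was far above the highest library of MKs cultured alone, and replicate 3 was again the highest. The log2 fold change was 9.54 ± 0.684 (SE, n = 4 per group; edgeR's quasi-likelihood test, adjusted p = 3.81e-05). Tagln2 was abundant in both groups, at 185, 261, 262 and 244 CPM alone and 284, 436, 873 and 346 CPM in cocultures. All 4 cocultures were above all MK-alone libraries, but replicate 1 of the cocultures was only slightly so. Its log2 fold change of 1.03 ± 0.35 (SE, 95% interval 0.234 to 1.82) did not pass the test (edgeR's quasi-likelihood test, adjusted p = 0.0647). Tagln2 was called under 3 of the 16 alternatives, and without replicate 3 of the cocultures its log2 fold change was 0.56, below the threshold of a 2-fold change.

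Calponins bind actin and tropomyosin, Cnn1 in smooth muscle and Cnn2 more widely, platelets and leukocytes included. Cnn1 had 0 counts in each of the 4 libraries of MKs cultured alone and 62.1, 114, 189 and 63.7 CPM in the cocultures. Against a floor of 3 counts per library, which averaged 0.448 CPM, it was at least 239-fold higher (edgeR's quasi-likelihood test, adjusted p = 0.000345). Cnn2 was at 233, 332, 380 and 370 CPM alone and at 363, 481, 701 and 497 CPM in cocultures. The groups overlapped, since replicate 1 of the cocultures lay below 2 libraries of MKs cultured alone. The log2 fold change of Cnn2 was 0.64 ± 0.25 (SE, 95% interval 0.0682 to 1.2; edgeR's quasi-likelihood test, adjusted p = 0.101).

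Tpm1 and Tpm2 encode tropomyosins with isoforms of muscle and of non-muscle cells, which the counts per gene do not separate. Tpm1 was already present without MSCs, at 59.2, 49.6, 42.3 and 54.8 CPM, and reached 625, 770, 1440 and 521 CPM in cocultures. The log2 fold change was 4.03 ± 0.359 (SE, n = 4 per group; edgeR's quasi-likelihood test, adjusted p = 0.000109), the smallest of the 7 genes called. Tpm2 was near the counting floor in MKs cultured alone, at 0.441, 0.722, 1.33 and 1.14 CPM, and at 81.0, 129, 233 and 84.5 CPM in cocultures. Its log2 fold change was 7.12 ± 0.546 (SE, n = 4 per group; edgeR's quasi-likelihood test, adjusted p = 5.27e-05). Neither gene's groups overlapped, and replicate 3 was the highest coculture for both.

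Cald1 encodes caldesmon, which binds actin, tropomyosin, calmodulin and myosin. It was at 8.83, 3.09, 1.996 and 3.42 CPM in MKs cultured alone and at 987, 803, 1061 and 776 CPM in cocultures. The groups did not overlap, and the cocultures lay closer together, relative to their mean, than for the other called genes. The log2 fold change was 7.76 ± 0.519 (SE, n = 4 per group; edgeR's quasi-likelihood test, adjusted p = 2.7e-05).

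**Figure D1:**
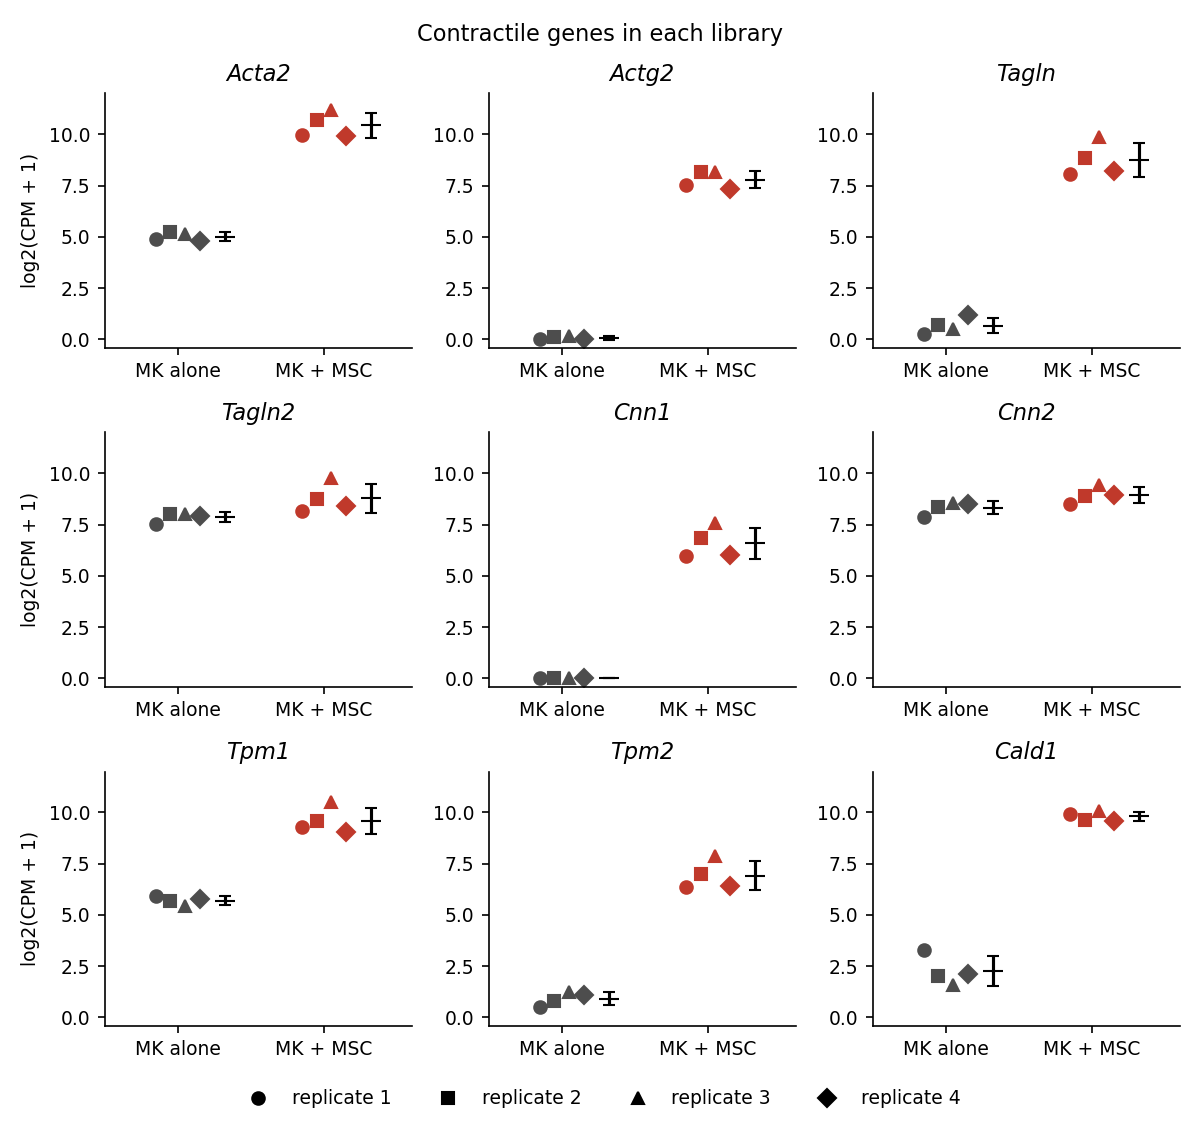
Level of each of the 9 genes in each library, as log2(CPM + 1), for MKs cultured alone (gray, 4 libraries) and MKs cocultured with MSCs (red, 4 libraries). Symbols mark the replicate number and bars the mean ± SD; the groups overlap for Cnn2 alone, and replicate 3 (triangle) is the highest coculture for Acta2, Actg2, Tagln, Tagln2, Cnn1, Cnn2, Tpm1, Tpm2 and Cald1.

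Over all 9 genes the median log2 fold change was 7.12, and that of all 11722 genes tested was 0.034. At an unadjusted p under 0.05 by edgeR, 9 were higher and 0 lower, where 21.7% of all genes tested were higher and 14.5% lower at that level. In 8 of the 9 genes every coculture was above every library of MKs cultured alone, where 19.3% of all genes tested had that order. Without replicate 3 of the cocultures 7 genes were called, and the median was 6.65. Together the 9 genes took 0.0515% to 0.0722% of the library in MKs cultured alone and 0.373% to 0.804% in cocultures.

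Paralogs from the same families were read in the same way. Of 8 such genes, 6 were tested, and Actc1 and Tagln3 were not in the count table and so were not analysed here. Of these 6, 3 were called higher and 0 lower, with a median log2 fold change of 1.49. Cnn3, a calponin of non-muscle cells, rose by 2.88 ± 0.21 (SE, n = 4 per group; edgeR's quasi-likelihood test, adjusted p = 3.8e-05), and Tpm4, a tropomyosin of non-muscle cells and platelets, by 2.44 ± 0.205 (adjusted p = 7.5e-05). Acta1, the actin of skeletal muscle, had 3 counts over MKs cultured alone, and the ratio of its pooled counts was 91.7 with a 95% counting interval of 31.1 to 447. The cytoplasmic actins Actb and Actg1 and the tropomyosin Tpm3 were not called, at log2 fold changes of 0.54, 0.41 and 0.29 (edgeR's quasi-likelihood test, adjusted p = 0.378, 0.179 and 0.565).

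**Figure D2:**
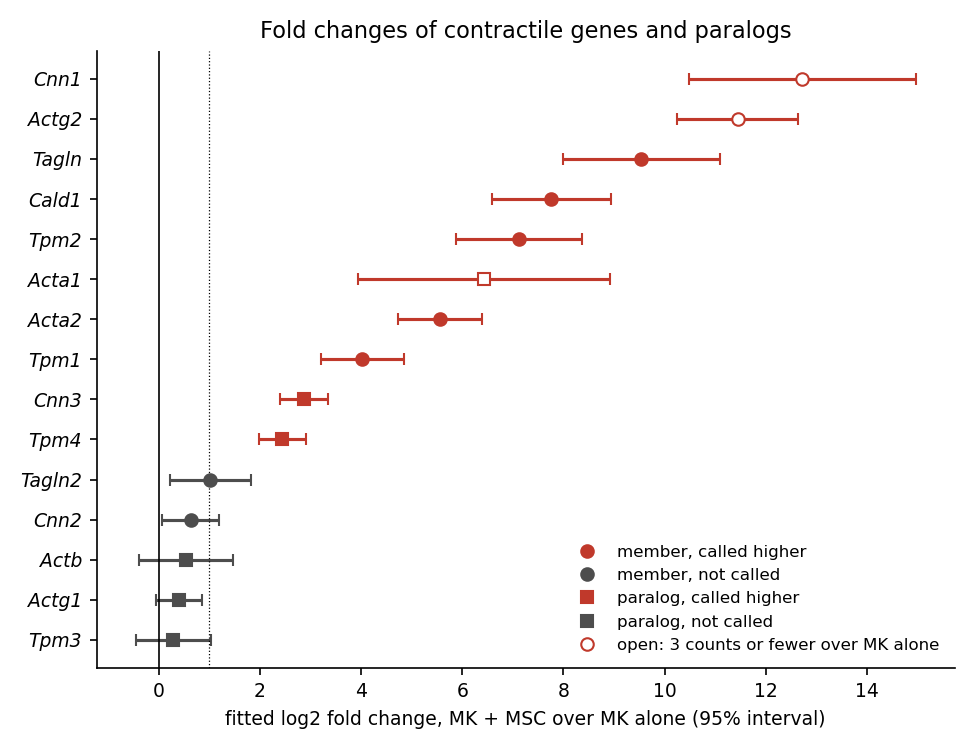
Fitted log2 fold change of cocultures over MKs cultured alone with its 95% interval, for the 9 genes (circles) and 6 paralogs (squares), with the 2-fold threshold dotted. Open symbols have 3 counts or fewer over MKs cultured alone, so that their fitted value depends on the prior count; Tagln2, Cnn2, Actb, Actg1 and Tpm3 (gray) were not called.

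Levels were compared between genes as CPM per kilobase of the mean length of a gene's coding transcripts. In MKs cultured alone Tagln2 was the highest of the 9 at 267 ± 40.4 (SD, n = 4) and Cnn2 followed at 194 ± 39.7, with overlapping ranges. Then came Tpm1 at 34.0 ± 4.82 and Acta2 at 22.0 ± 3.39, each separated from its neighbors on this scale. Per kilobase of the longest transcript instead, Tpm1 was at 17.8 and Acta2 at 15.5, and their ranges overlapped. Cald1 was at 1.88 ± 1.33, Tagln at 0.658 ± 0.475 and Tpm2 at 0.622 ± 0.275, and these ranges overlapped from each gene to the next.

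In the cocultures the order was led by Acta2, at 1039 ± 442 CPM per kilobase (SD, n = 4). Tpm1 at 555 ± 274, Tagln2 at 544 ± 299, Tagln at 503 ± 319, Cald1 at 393 ± 60.4, Cnn2 at 302 ± 83.0 and Actg2 at 239 ± 69.3 followed, and no gene down to Actg2 was separated from the next by its range. Tpm2 at 90.4 ± 48.7 and Cnn1 at 88.6 ± 49.3 were the lowest, overlapped each other and lay below Actg2. Per kilobase of the longest transcript, Acta2 stayed first at 730.4, and Tagln (310), Tagln2 (306), Tpm1 (290.3), Cnn2 (208), Cald1 (190) and Actg2 (172) followed in that order, again with overlapping neighbors.

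Within each family, the composition of the RNA differed between the groups. Acta2 and Actg2 together made 0.609% ± 0.0873 (SD, n = 4) of the actin RNA per length in MKs cultured alone and 20.4% ± 2.07 in cocultures, while Actg1 made 70.4% and 56.5% and Actb 29.0% and 22.9%. With coculture replicate 3 left out, Actg1 made 59.8% and Actb 19.5% of actin RNA in cocultures, and in replicate 3 the share of Actb was 32.9%, above all MK-alone libraries. Tagln made 0.239% ± 0.167 of transgelin RNA alone and 47.2% ± 2.89 in cocultures, with Tagln2 making the rest. Cnn1 made 0% of calponin RNA alone and 11.5% ± 5.0 in cocultures. The share of Cnn2 was 79.6% alone and 40.2% in cocultures, and that of Cnn3 20.4% and 48.3%. Tpm1 and Tpm2 made 7.12% ± 1.24 of tropomyosin RNA alone and 36.3% ± 5.43 in cocultures, where Tpm3 made 67.9% and 23.0% and Tpm4 25.0% and 40.7%. In replicate 3 of the cocultures Tpm4 made 26.3%, within the range of MKs cultured alone, and without that replicate Tpm4 averaged 45.5% in cocultures. Without it the shares in cocultures were 20.4% for Acta2 with Actg2, 46.4% for Tagln, 9.14% for Cnn1 and 33.6% for Tpm1 with Tpm2. Muscle and non-muscle isoforms of Tpm1 and Tpm2 were not separated in these shares. The shares of Acta2 with Actg2, of Tagln, of Cnn1 and of Tpm1 with Tpm2 did not overlap between the groups. They are described here without a test.

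**Figure D3:**
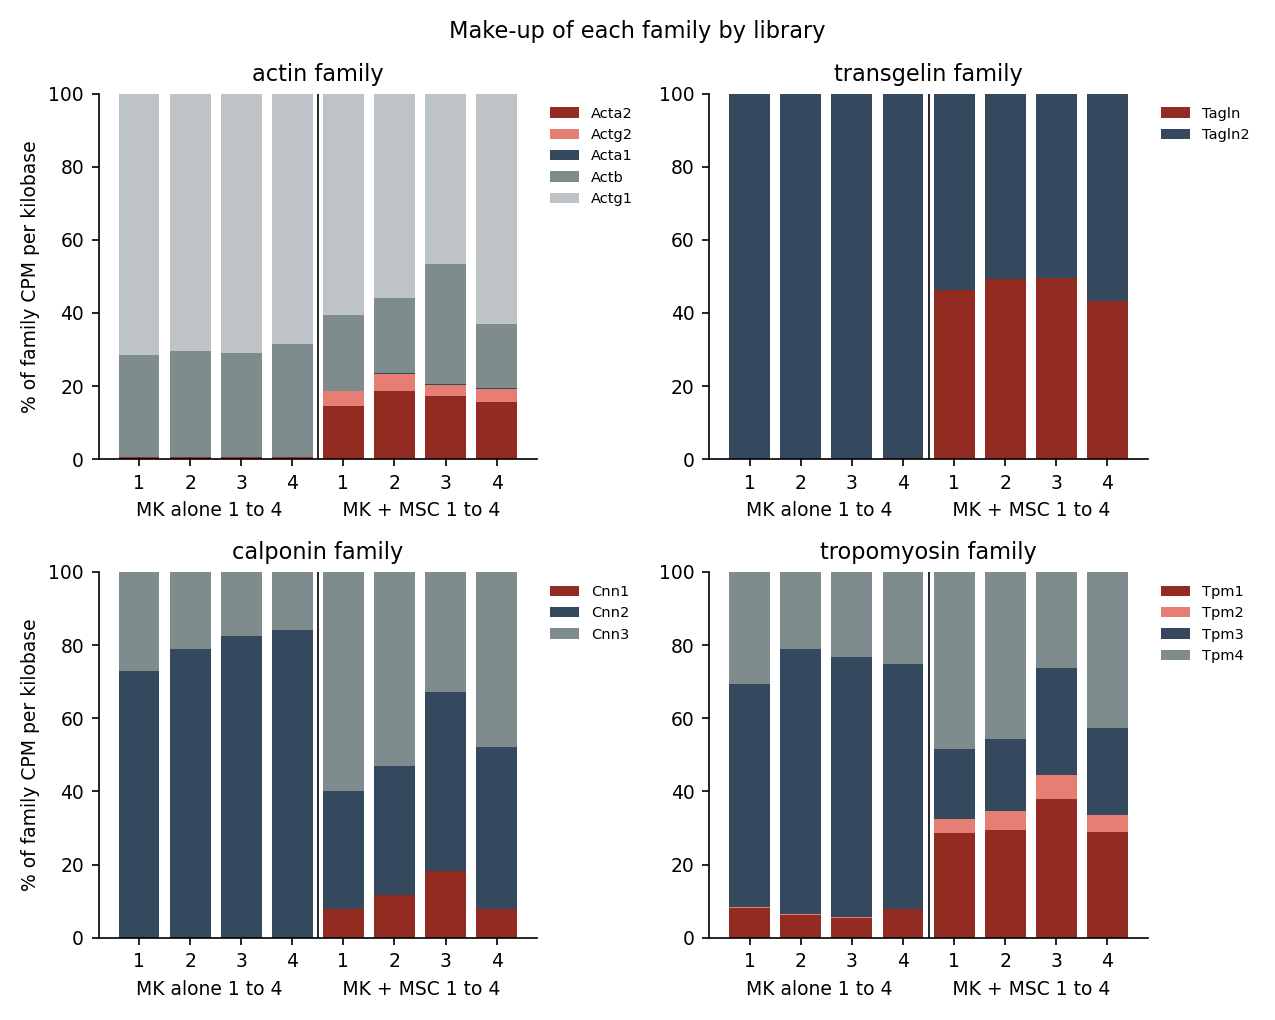
Make-up of the actin, transgelin, calponin and tropomyosin families in each library, as the percent of the family's CPM per kilobase, for MKs cultured alone (left of the line) and cocultures (right). Red shades are Acta2, Actg2, Tagln, Cnn1, Tpm1 and Tpm2. Acta2 with Actg2 take 18.7% to 23.3% of actin RNA in the cocultures and 0.505% to 0.711% in MKs cultured alone.

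The same apparatus holds genes beyond these 9, and lists of such genes were read against the same background. Of 16 genes of the smooth muscle apparatus, 13 were in the table and 10 were tested, of which 6 were called higher and 1 lower (median log2 fold change 3.29). Myl9, the regulatory light chain of smooth muscle myosin, rose from 3.23 to 247 CPM on average (log2 fold change 6.24 ± 0.459 SE; edgeR's quasi-likelihood test, adjusted p = 4.2e-05). Nexn, an actin-binding protein of the Z disc, rose by 5.79 on the log2 scale (adjusted p = 0.0122), and Csrp1, a LIM protein of smooth muscle, by 2.28 (adjusted p = 0.0031). Nexn was not called without replicate 4 of MKs cultured alone (5.50, adjusted p = 0.0541). The myosin heavy chain of smooth muscle, Myh11, was not in the count table and so was not analysed here. The gene called lower was Smtnl2, a smoothelin-like gene under 10 CPM in every library, which fell by 2.03 (adjusted p = 0.0313). Without replicate 3 of the cocultures 10 genes of this list were called higher and 1 lower, and without any other single library 0 were called lower.

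Of 21 genes of stress fibers and focal adhesions, 20 were in the table and 19 tested, with 12 called higher and 1 lower (median log2 fold change 1.79). Parva and Fermt2, which link integrins to actin, had 3 counts each over MKs cultured alone and averaged 149 and 139 CPM in cocultures (edgeR's quasi-likelihood test, adjusted p = 2.97e-05 and 3.81e-05). Paxillin (Pxn) fell by 1.33 on the log2 scale (adjusted p = 0.0045), and filamin A (Flna) was at 859 CPM alone and 984 CPM in cocultures (adjusted p = 0.613).

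Non-muscle myosin and its regulators gave a different count. Of the 10 genes tested, 1 was called higher and 1 lower, and the median log2 fold change was -0.037. Myl12a, a light chain, rose by 1.15 (edgeR's quasi-likelihood test, adjusted p = 0.0208), and Ppp1r12a, the targeting subunit of myosin phosphatase, fell by 1.32 (adjusted p = 0.00534). Ppp1cb, the catalytic subunit, averaged 890 CPM alone and 491 CPM in cocultures (adjusted p = 0.0772). The log2 fold change of Myl12a was 0.78 without replicate 3 of the cocultures, under the 2-fold threshold. In this list 0 genes were called higher without any 1 of the 4 MK-alone libraries and 2 without replicate 1 or replicate 3 of the cocultures, and DESeq2 called 3 higher and 3 lower.

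Among 12 SRF cofactors and smooth muscle regulators, 9 were tested, 4 were called higher and 1 lower (median log2 fold change 1.25). Prrx1, a homeobox factor of mesenchymal cells, had 4 counts over MKs cultured alone and averaged 179 CPM in cocultures (edgeR's quasi-likelihood test, adjusted p = 5.67e-05). Fhl2, a LIM protein that binds SRF, rose by 7.25 ± 0.5 on the log2 scale (adjusted p = 3.1e-05), and Mef2c, a MADS box factor also used in MKs, fell by 1.86 ± 0.251 (adjusted p = 0.000981). Srf averaged 7.51 CPM alone and 13.4 CPM in cocultures (adjusted p = 0.646), with 0 CPM in replicate 3 of the cocultures. Its cofactor gene Mrtfa averaged 45.0 and 43.2 CPM (adjusted p = 0.925), and Mrtfb rose by 1.25 on the log2 scale (adjusted p = 0.0211), a call that was lost without any 1 of the 4 MK-alone libraries (adjusted p = 0.0641 to 0.0757). Without replicate 3 of the cocultures, 8 genes of this list were called higher. Srf, Mrtfa and Mrtfb were named after their values were seen.

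Markers of several cell types were read in the same libraries. Of 14 MSC markers, 11 were in the table and 9 were tested, of which 6 were called higher and 0 lower (median log2 fold change 5.59). The list summed to 153 to 187 CPM in MKs cultured alone and 716 to 2856 CPM in cocultures. The largest parts of the MK-alone sum were Vcam1, Itgav and Eng, at 93.4, 40.5 and 20.3 CPM on average. Vcam1 and Eng were not called (edgeR's quasi-likelihood test, adjusted p = 0.916 and 0.352). In replicates 1 to 4 of the cocultures Vcam1 was at 177, 118, 0.209 and 134 CPM, and in MKs cultured alone at 84.3 to 103.5 CPM. Pdgfra, Lepr, Cxcl12, Kitl, Col1a1 and Col3a1 averaged under 1 CPM in MKs cultured alone. Col3a1 and Col1a1, chains of fibrillar collagen, averaged 277 and 521 CPM in cocultures and had 1 and 7 counts over MKs cultured alone (edgeR's quasi-likelihood test, adjusted p = 4.66e-05 and 5.67e-05). Col1a2 rose by 6.89 on the log2 scale (adjusted p = 1.85e-05). Of 10 myofibroblast matrix genes, 9 were in the table and 6 were tested, of which 5 were called higher and 0 lower (median log2 fold change 6.48). Postn, which encodes periostin, was tested and not called (edgeR's quasi-likelihood test, adjusted p = 0.178). It was at 27.7, 21.8, 0 and 16.5 CPM in replicates 1 to 4 of the cocultures and at 0.111 to 3.42 CPM alone. Cdh11, a cadherin of mesenchymal cells, averaged 125 CPM in cocultures with 1 count over MKs cultured alone (adjusted p = 1.85e-05), and Sparc, a matrix glycoprotein, rose from 0.547 to 963 CPM on average (adjusted p = 1.8e-05). Without replicate 3 of the cocultures, 8 genes of either list were called higher.

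Pericyte and vascular smooth muscle markers summed to 10.2 to 14.5 CPM in MKs cultured alone and 6.70 to 31.5 CPM in cocultures. Of 10 such genes, 5 were in the table, and Cspg4 and Des, which encode NG2 and desmin, were at 0 in all 4 MK-alone libraries and at most 1.56 and 1.95 CPM in the cocultures. Notch3, a receptor of mural cells picked after its values were seen, was at 0.103 to 0.333 CPM alone and at 8.06, 11.3, 0 and 7.98 CPM in replicates 1 to 4 of the cocultures, and did not pass the filter on low counts. Mcam was the gene of this list that passed the filter on low counts (log2 fold change -0.46; edgeR's quasi-likelihood test, adjusted p = 0.536), and without replicate 3 of the cocultures 1 gene of the list was called higher. Macrophage markers were also higher, with 8 of 9 tested genes called and summed levels of 152 to 228 CPM alone and 914 to 1357 CPM in cocultures. Marco, a scavenger receptor, was at 0 alone and averaged 11.6 CPM in cocultures (adjusted p = 0.00493), C1qb, a complement chain, rose by 7.68 on the log2 scale (adjusted p = 0.000214), and Csf1r by 1.33 (adjusted p = 0.0127). All 10 neutrophil markers were called lower. S100a8 fell by 3.46 on the log2 scale (edgeR's quasi-likelihood test, adjusted p = 0.000565), Mpo fell by 4.63 (adjusted p = 0.00027) and Ly6g fell by 4.69 (adjusted p = 0.0015). Of the 15 MK and platelet markers, 0 were called by edgeR, 1 was lower at an unadjusted p under 0.05, and DESeq2 called 1 lower. With coculture replicate 3 left out, 1 was called higher and 2 lower. Pf4, a platelet chemokine, had a log2 fold change of 0.35 (adjusted p = 0.409). The part of these cell types in the levels of the contractile genes was not tested.

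The contractile genes and the MSC markers did not follow each other in every library. The 7 called genes summed to 3207, 4221, 6468 and 2885 CPM in replicates 1 to 4 of the cocultures, and the MSC markers to 2443, 2856, 716 and 2244 CPM. The contractile sum per CPM of MSC markers was thus 1.31, 1.48 and 1.29 in replicates 1, 2 and 4 and 9.03 in replicate 3. In MKs cultured alone this ratio was 0.507 to 0.54, with Vcam1, Itgav and Eng as the largest parts of the marker sum. Replicate 3 had the highest contractile sum and the lowest MSC marker sum of the cocultures, and its Pdgfra, the gene of the sorting marker CD140a, was at 0.209 CPM against 24.8 to 34.8 CPM in the other cocultures. Its myofibroblast matrix genes summed to 1161 CPM against 2305 to 2806 CPM, and its macrophage markers to 1357 CPM against 914 to 1187 CPM. The macrophage list was split in replicate 3. Cd68 and C1qb were higher there, at 509 and 297 CPM against 201 to 263 and 57.1 to 128 CPM in the other cocultures. Adgre1 and Csf1r were lower there, at 132 and 151 CPM against 204 to 274 and 261 to 329 CPM.

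**Figure D4:**
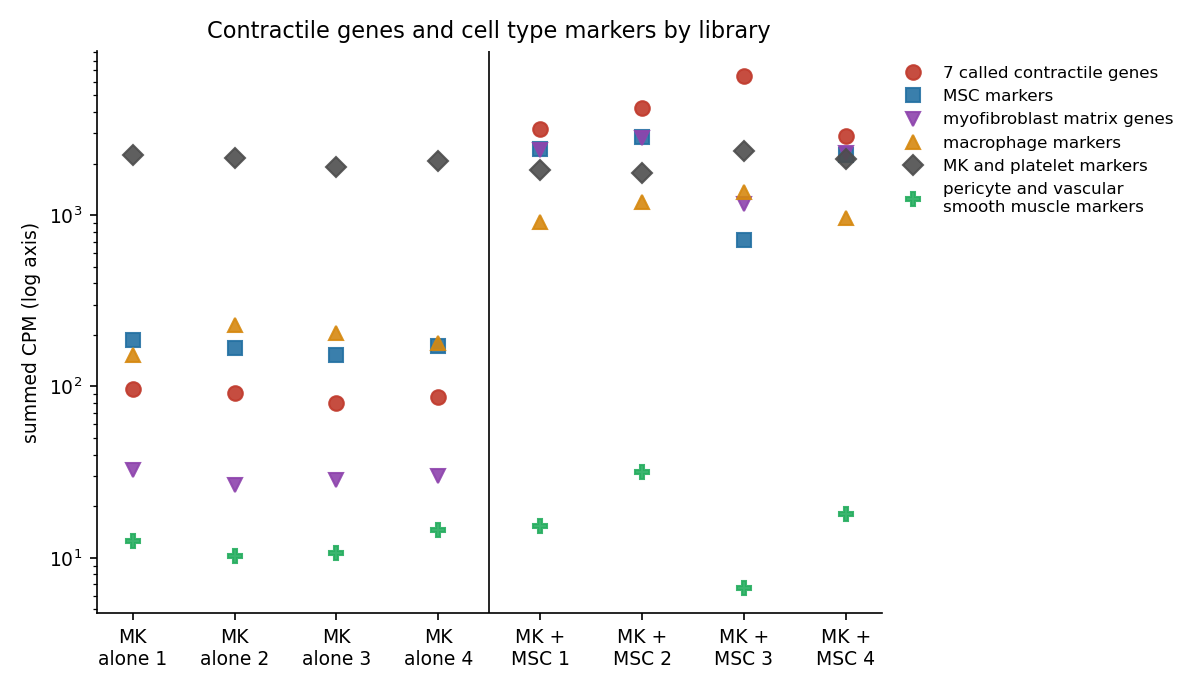
Summed CPM (log axis) in each library for the 7 contractile genes called higher and for the marker lists of MSCs, myofibroblast matrix, macrophages, MKs with platelets, and pericytes with vascular smooth muscle. In replicate 3 of the cocultures the contractile sum is the highest, at 6468 CPM, and the MSC marker sum the lowest of the cocultures, at 716 CPM.

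Across the 8 libraries the 7 called genes followed each other in log2(CPM + 1) with Pearson's r of 0.977 to 0.999, and Tagln2 and Cnn2 followed each other with r of 0.937. The genes outside the list whose log2(CPM + 1) was closest to the mean of the 9 genes were Ift43 (r = 0.999), Folr2 (0.9988), Rpl39l (0.9985), Serpinb9b (0.9984) and Synpo (0.9984). Folr2 is a folate receptor of macrophages and Synpo encodes synaptopodin, an actin-associated protein. Spearman's rho for these 5 genes was 0.786 to 0.939. These values are descriptions over libraries of 2 groups, and any gene that is low in 1 group and high in the other has a high r here. Without replicate 3 of the cocultures the closest genes were Ccn1, S100a16, Tnc, Marco and Ccn5 (r of 0.9997 to 0.9999), of which Tnc encodes the matrix protein tenascin C and Ccn1 and Ccn5 matricellular proteins.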

How the data were processed

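RNA of 8 libraries was measured by paired-end SMART-Seq HT sequencing, 4 of MKs cultured alone and 4 of cocultures, and groups and replicate numbers came from the labels. The authors deposited whole-number counts per gene without normalization, made per the methods with fastp and kallisto on the mm10 transcriptome, and versions, rounding, strand use and the batch in the authors' DESeq2 design are not given in the sources used here. Full-length protocols give more reads to longer transcripts, so levels of the members were compared with each other only per length. All values were computed from these counts in R 4.3.3 by edgeR 4.0.16, with filterByExpr, TMM factors and a robust quasi-likelihood fit to the 8 libraries without covariates. A call needed an adjusted p (Benjamini-Hochberg) no higher than 0.05, a change of 2-fold or more, and a group mean of 1 CPM or more. DESeq2 1.42.0, other scalings and filters, the replicate number as a block and each library left out in turn were alternatives. Python 3.11.15 with matplotlib 3.10.9 was used for summaries and figures. The members and lists were chosen with earlier results of these data known. Named beyond the members and paralogs were, per list, the 2 called genes with the largest fold change in each direction among those with at least 10 CPM in 1 group, the gene of highest CPM (mean over both groups, not per length), and the 5 genes most correlated with the members; any other was chosen after its values were seen. Same-numbered libraries of the groups deviated together (r over 0.1) in 2 of 4 pairs, so the numbers were not taken to pair the libraries. All 8 libraries entered the reported values.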

Additional observations from a re-analysis of the deposited data

Results flagged for a closer look

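Levels and family shares of the 9 genes and their paralogs were searched for single libraries that stood far from the rest of their group. Summed levels of the 9 genes, MSC markers, myofibroblast matrix genes and macrophage markers were searched too. Dixon's test at the 95% level was used within MKs cultured alone and within cocultures. The search covered 70 sets of 4 values and found 5 such values in 3 libraries. About 1 in 20, or 3.5, is only a rough guide to what would come up by chance. Some sets share the same counts, and sets such as Cnn1 at 0 in every MK-alone library cannot be flagged. Of the 5 values, 2 were of coculture replicate 3. Tpm3 was at 1020 CPM in that replicate and at 382 to 468 CPM in the other cocultures. Its Tpm1 made 38.0% of tropomyosin RNA per length, against 28.7% to 29.6% in the other cocultures. Acta1 was at 16.3 CPM in replicate 2 of the cocultures and at 6.73 to 8.33 CPM in the others. In MKs cultured alone all 3 counts of Acta1 were in replicate 3, where it stood at 0.333 CPM and made 0.00861% of actin RNA per length, which is at the floor of 3 counts.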

How the results depend on the processing

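The number of contractile genes called higher was 7 or 8 and the number called lower 0 under DESeq2, other scalings and filters, no fold threshold and the replicate block, and likewise 7 to 8 and 0 with each library left out in turn. The median log2 fold change of the 9 genes was 6.65 to 7.36 with each library left out, 7.14 with DESeq2 and 7.04 by library size alone. With the replicate number as a block, 7 genes were called and the median was 7.13, and the median of all genes was -0.14. The block changed the call of none of the 9 genes, but Myl12a (adjusted p = 0.0787), Mrtfb (0.072), Marco (0.0819) and Tek (0.0727) were not called with it, and 6 macrophage markers were called higher; 4 of the 8 libraries correlated best with their own number. Of 144 values of single genes under alternatives, 141 kept their direction and their side of the threshold, 3 were newly called and 0 were lost or reversed. The 3 were Tagln2 under DESeq2 (log2 fold change 1.02, adjusted p = 0.037), scaled to the MK and platelet markers (1.03, adjusted p = 0.0444) and without replicate 1 of the cocultures (1.22, adjusted p = 0.0388), within a range of adjusted p over all alternatives of 0.0192 to 0.165; the cause was not tested. Not divided by length, Acta2 and Actg2 made 0.76% of actin RNA in MKs cultured alone and 23.1% in cocultures. Smtnl2, the gene of the smooth muscle list called lower, was also not called with the replicate block or with every gene of at least 1 count kept. Among single-gene changes, list counts, levels per length and correlations, 520 values stayed within their tolerance (1.5 times for a count, 1 SD for a level, 0.05 for a correlation, the same call for a gene), 49 moved beyond it and 3 were newly called. Depth limited Actg2, Cnn1, Tagln and Tpm2 in MKs cultured alone, where they were near or under 3 counts in at least 1 library.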

Other observations

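Several genes of contractile and stromal cells were at 0 in replicate 3 of the cocultures although Acta2, Tagln, Cnn1 and Tpm1 were highest there, and they were picked after their values were seen. Flnc, the filamin of muscle, was at 22.8, 40.0, 0 and 44.2 CPM in replicates 1 to 4 of the cocultures and at 0 in all libraries of MKs cultured alone. Itga11, an integrin chain for collagen that marks myofibroblasts, was at 41.0, 70.1, 0 and 34.2 CPM, likewise with 0 in MKs cultured alone. Smtn, which encodes smoothelin, was at 29.2, 48.1, 0 and 45.1 CPM and at 2.65 to 7.73 CPM in MKs cultured alone. In the same replicate Palld, a scaffold of actin bundles, reached 1152 CPM against 189 to 247 CPM in the other cocultures, and Csrp2, a LIM protein of smooth muscle, reached 122 CPM against 21.1 to 28.4 CPM. That library had counts on 10735 genes, the fewest of all, and its part in these values was not tested.

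Endothelial markers were also read. Of 8 such genes, 7 were in the table and 4 were tested, of which 0 were called higher and 1 lower (median log2 fold change -1.45; 0 called lower without any 1 of the 4 MK-alone libraries, 2 without replicate 3 of the cocultures). Tek, a receptor of endothelial and blood stem cells, fell by 1.68 on the log2 scale (edgeR's quasi-likelihood test, adjusted p = 0.0195), from an average of 30.4 CPM in MKs cultured alone to 9.49 CPM in cocultures.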
